A study of Mus musculus with 11 samples.

Results

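The 34 genes that encode serotonin, dopamine, adrenergic, muscarinic and histamine receptors were followed through RNA-seq of the mouse hippocampus, out of 38293 genes in the count tables. They were taken as a list of gene symbols by receptor family, comprising 13 serotonin, 5 dopamine, 8 adrenergic, 5 muscarinic and 3 histamine receptors, and all 34 were found in the tables. The mice were wildtype 129S6/SvEv x C57BL/6J hybrids of 14 weeks. Their dams had eaten food with either 2.3 mg folic acid (FA) per kg (CD, 6 mice, 3 of each sex) or 40 mg FA per kg (FD, 3 females and 2 males). The food with 40 mg was given only in the 6 weeks before mating. From mating on, the mice of both groups were kept on the food with 2.3 mg. The labels do not tell which mice shared a dam, so p-values measure the spread between mice that may include littermates. Between 11737554 and 44447006 reads per mouse were counted on genes.

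The receptors described here receive the signals of fibres that enter the hippocampus from elsewhere in the brain. Serotonin arrives from the raphe nuclei, noradrenaline from the locus coeruleus, acetylcholine largely from the medial septum and histamine from the hypothalamus, while dopamine comes from the midbrain and in part from locus coeruleus fibres. Nearly all of the receptors are coupled to G proteins: Gs raises and Gi lowers cyclic AMP, and Gq activates phospholipase C. Htr3a, a subunit of a cation channel, is the exception. Through these routes the transmitters tune excitability and synaptic plasticity, and several of the receptors are targets of antidepressant, antipsychotic and cognition-enhancing drugs.

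Adrb1, which differed between the sexes, and Drd2 and Htr2c, whose levels are set beside markers of other tissue below, are shown by the 250 bases that precede their RefSeq start site (GRCm38.p6), 5′ to 3′. CpG dinucleotides are in capitals. The stretches lie at chr19:56721867-56722116 for Adrb1, chr9:49340153-49340402 for Drd2 and chrX:146962263-146962512 for Htr2c, all on the plus strand.
Adrb1: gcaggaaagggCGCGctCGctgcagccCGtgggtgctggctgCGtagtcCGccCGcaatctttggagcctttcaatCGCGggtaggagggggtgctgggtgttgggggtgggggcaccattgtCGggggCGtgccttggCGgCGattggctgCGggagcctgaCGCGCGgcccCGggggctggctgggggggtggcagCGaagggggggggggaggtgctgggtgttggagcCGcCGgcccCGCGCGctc
Drd2: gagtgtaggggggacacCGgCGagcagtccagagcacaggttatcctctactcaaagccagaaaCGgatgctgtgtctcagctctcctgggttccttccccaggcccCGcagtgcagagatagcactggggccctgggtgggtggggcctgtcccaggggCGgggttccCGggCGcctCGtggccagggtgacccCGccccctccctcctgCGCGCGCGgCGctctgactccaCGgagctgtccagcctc
Htr2c: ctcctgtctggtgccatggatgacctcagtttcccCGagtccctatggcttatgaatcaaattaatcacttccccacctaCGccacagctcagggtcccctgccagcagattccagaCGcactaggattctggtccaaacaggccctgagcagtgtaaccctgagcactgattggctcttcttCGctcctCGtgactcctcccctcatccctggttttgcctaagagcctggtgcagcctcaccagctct

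The Adrb1 stretch held 24 CpG, a rank of 88.0% among the 32851 such stretches of all RefSeq genes, the Drd2 stretch held 15 and the Htr2c stretch 5. Stretches were listed for 27 members, 35 in all, with a median of 13 CpG for the richest stretch of each member against a median of 6 over the single stretches of all genes. The letters GGGCGG, the core of a GC box, were searched on both strands and occurred in at least 1 stretch of 17 of the 27 members and in 32.7% of all stretches. The letters TATAAA occurred in 1 member, Adra2a, and in 12.4% of all stretches. A member with several start sites had more chances to hold a motif, and such a match is a description of letters only.

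Of the 34 receptors, 28 reached a mean of at least 1 CPM (counts scaled to the library size, with the TMM method) and were taken as expressed. Htr1d, Htr2b, Drd3, Drd4, Adra2b and Adrb3 did not. Levels of different genes were compared as CPM per kb of exon, since a longer transcript collects more reads. On this scale the 5 muscarinic receptors together held 43.3% of the summed level of all members, the serotonin receptors 25.8%, the adrenergic receptors 18.7%, the histamine receptors 8.43% and the dopamine receptors 3.79%. Grouped by coupling, Gq receptors held 50.1%, Gi receptors 34.5%, Gs receptors 12.2% and the channel subunit Htr3a 3.17%.

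**Figure D1:**
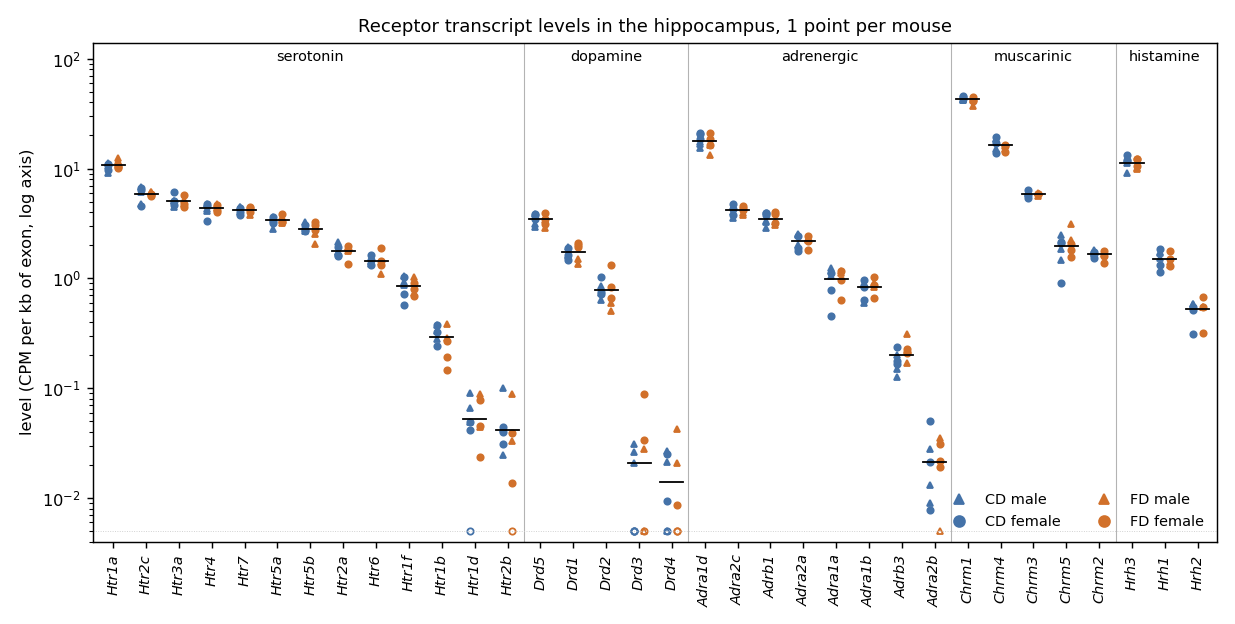
Level of each of the 34 receptors in CPM per kb of exon on a log axis, grouped by transmitter, with 1 point per mouse (blue CD, orange FD, triangles males, circles females) and a black line at the mean of the 11 mice. Open points on the dotted line are mice with no read. Chrm1 stood highest with a mean of 42.7, and the CD and FD points overlapped for every receptor.

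Chrm1, the M1 receptor of principal neurons, dominated the muscarinic family with 62.2% of its level. It lies on chromosome 19 (8663789 to 8683587, plus strand, GRCm38), with 3 separate exonic stretches in GENCODE M21. Its level per length was 42.7 ± 2.26 CPM per kb (SD, n = 11), higher than that of 95.3% of 20256 tested genes with a length. Chrm4, the Gi-coupled M4 receptor (chromosome 2, 91927249 to 91928688, plus strand, a single exon of 1440 bases in GENCODE M21), followed with 16.4 ± 1.83 CPM per kb. The Gq-coupled Chrm3 had 5.90 ± 0.249 CPM per kb. The stretch before the RefSeq start site of Chrm4 lies at 91921939 to 91922188, upstream of that exon. The GENCODE entry may thus lack part of the transcript, and the level per length of Chrm4 and the sums it enters rest on it. With these lengths Chrm1, Chrm4 and Chrm3 ranked in this order in 11 of 11 mice without overlap. Chrm5 (1.98 ± 0.575) and Chrm2, the Gi-coupled M2 receptor (1.66 ± 0.121), were lower and overlapped each other, with Chrm5 the higher in 9 of 11 mice. The order of this pair rests on the annotated lengths as well. Chrm5 has 1 transcript of 1599 bases, against 6053 exonic bases for Chrm2. Before division by length Chrm2 was the higher, with a mean of 10.05 CPM against 3.16 CPM for Chrm5.

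Among the serotonin receptors Htr1a led with 10.7 ± 0.893 CPM per kb (SD, n = 11). It encodes the Gi-coupled 5-HT1A receptor, the inhibitory receptor of pyramidal cells, from a single exon on chromosome 13 (105443639 to 105448122, plus strand). Below it the levels formed a shallow slope in which neighbours overlapped: Htr2c had 5.87 ± 0.692, the channel subunit Htr3a 5.02 ± 0.503, and the Gs-coupled Htr4 and Htr7 had 4.34 ± 0.413 and 4.19 ± 0.279. The Gi-coupled Htr5a and Htr5b reached 3.39 ± 0.286 and 2.83 ± 0.354, and the Gq-coupled Htr2a, the target of classical hallucinogens, 1.78 ± 0.214. Htr6, Htr1f and Htr1b lay between 1.43 and 0.292 on average, and Htr1d and Htr2b were near the limit of detection, with 46 and 24 reads over all mice. The lead of Htr1a depended on the length used: Htr2c had 11.2 CPM per kb of its longest transcript.

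Adra1d, a Gq-coupled alpha-1 receptor for noradrenaline, made up 59.9% of the adrenergic level with 17.7 ± 2.47 CPM per kb (SD, n = 11), which placed it second among all members on this scale. Both values rest on an annotated length of 1899 bases, the shortest of the adrenergic members. Before division by length its mean of 33.7 CPM lay below those of Chrm1, Htr2c, Htr1a, Chrm3 and Hrh3. The gene lies on chromosome 2 (131545850 to 131562283, minus strand). Adra2c and Adra2a, the Gi-coupled receptors that also act as autoreceptors on noradrenergic fibres, had 4.15 ± 0.364 and 2.18 ± 0.274, and the Gs-coupled Adrb1 (chromosome 19, 56722199 to 56733113, plus strand) had 3.49 ± 0.404. Adra2c exceeded Adrb1 in 10 of 11 mice, with overlapping ranges. Adra1a (0.989 ± 0.258) and Adra1b (0.830 ± 0.142) overlapped. Per kb of the longest transcript Adra1a had 2.02 CPM, close to the 2.18 CPM of Adra2a, and Adra1b had 0.842 CPM. Adrb3, known from fat tissue, was at 0.672 CPM and Adra2b at 0.0861 CPM on average.

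Hrh3 (chromosome 2, 180099465 to 180104488, minus strand) encodes a Gi-coupled receptor that also acts as an autoreceptor on histamine fibres. It held 84.8% of the histamine receptor level with 11.3 ± 1.25 CPM per kb (SD, n = 11). Hrh1, the Gq-coupled target of sedating antihistamines, had 1.51 ± 0.225 and the Gs-coupled Hrh2 0.521 ± 0.109, each below its predecessor in 11 of 11 mice. In the dopamine family the Gs-coupled Drd5 (chromosome 5, 38319367 to 38322518, plus strand) led with 3.45 ± 0.383 CPM per kb. Drd1, the main Gs-coupled receptor of the striatum, followed with 1.73 ± 0.248 and Drd2, its Gi-coupled counterpart, with 0.787 ± 0.231, and the order Drd5, Drd1, Drd2 held without overlap of ranges. Drd3 and Drd4 had 9 and 13 reads in total over the 11 mice. An antisense transcript, Gm26560, shares 48.6% of the exonic bases of Drd5, with 154 reads in total against 2767 for Drd5. The strand setting of the counting is not given, and each count table lists some reads as ambiguous. Reads on the shared bases may thus have been left out of both genes, and this was not tested. Smaller shares overlap a gene on the other strand in Adrb3 (24.8%), Htr1b (18.0%), Htr2b (11.8%), Hrh3 (11.1%) and Adra1d (7.74%). The partner of Adrb3 is not in the count tables.

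The study asked whether the maternal diet before conception affected behaviour and learning of the offspring, and reported impaired reversal learning in FD mice. Hippocampal expression was a further readout, for which it reported minor differences. For the receptors no difference between FD and CD mice passed the test. Drd3, with 9 reads, was not tested. Of the other 33 members, 0 had an adjusted p under 0.1 (quasi-likelihood test of edgeR, adjusted after Benjamini and Hochberg), 0 had an unadjusted p under 0.05, and DESeq2 called 0. Over all 20589 genes tested 0.068% passed the adjusted and 2.59% the unadjusted threshold. No member had CD and FD ranges that did not overlap, against 0.505% of all genes tested and 0.215% of those with at least 1 CPM. Of the 33 members 15 had a positive log2 fold change, or 45.5% against 48.2% of all genes, and the median of the 28 expressed members was -0.0098 against -0.0092 over all genes with at least 1 CPM. A blocked fit, in which mice of the same sex and replicate number formed a pair, moved the count over all genes from 14 to 25 and also called 0 members.

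**Figure D2:**
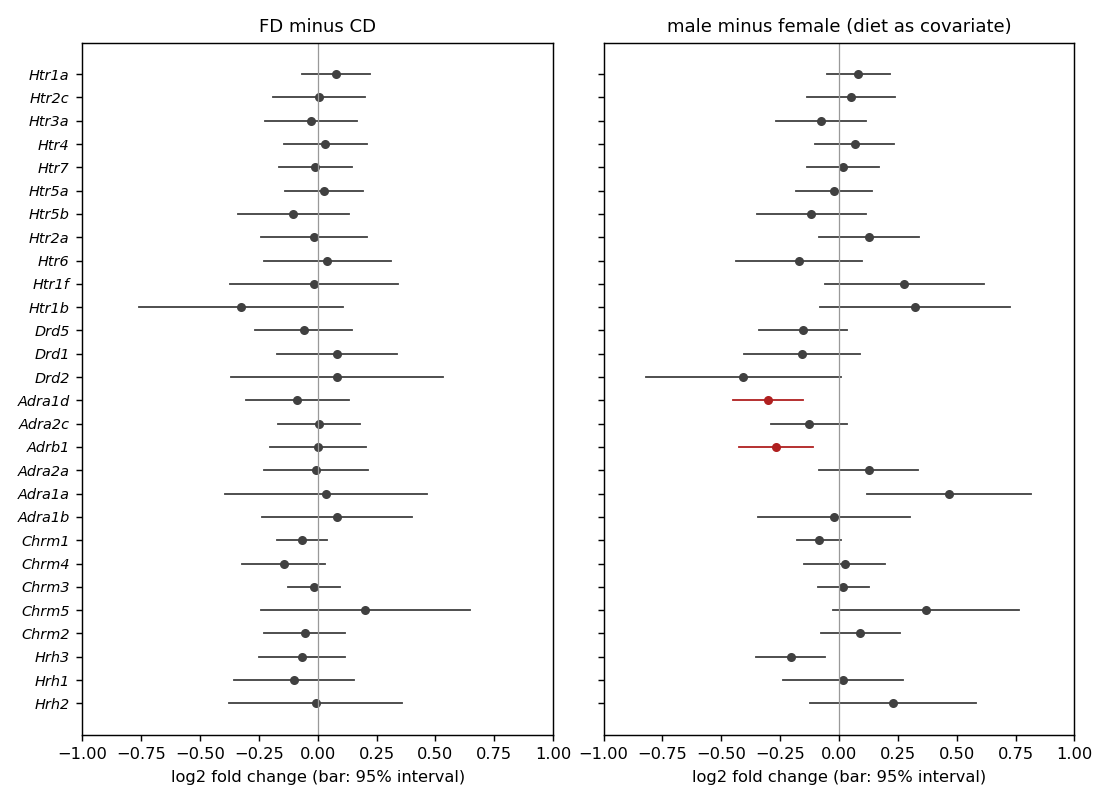
Log2 fold change of the 28 expressed receptors between FD and CD mice (left) and between males and females with diet as covariate (right), with bars for the 95% interval of edgeR's quasi-likelihood fit. Every interval on the left includes 0, and on the right the 2 receptors past the adjusted threshold, Adra1d and Adrb1, are in red with values of -0.30 and -0.27.

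The data limited the size of a diet difference pooled over the sexes for most receptors. The fit had no term for sex, so its intervals do not bound a difference within males or within females. Standard errors of the log2 fold change ranged from 0.050 to 0.213 over the 28 expressed members, with a median of 0.10. For 25 of them the whole 95% interval lay within 0.5 of 0 on the log2 scale, and for 13 of them within 0.25. The 3 whose intervals reached further were Htr1b, Drd2 and Chrm5, each below 4 CPM on average. For the members under 1 CPM the standard errors ran from 0.219 to 0.813, so that only large differences were detectable there.

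The 5 members with the smallest unadjusted p for diet came from 3 families. Values of the FD mice are given in the order female 1, male 1, female 2, male 2 and female 3. Chrm4 had a lowest, median and highest level of 19.97, 25.5 and 28.1 CPM in CD mice, and of 23.6, 21.9, 22.9, 23.0 and 20.3 CPM in the FD mice. The FD values thus lay inside the CD range, in its lower part, and the log2 fold change was -0.14 (SE 0.084, adjusted p = 1 in edgeR's quasi-likelihood test). Chrm1, the other muscarinic gene, had 275, 279 and 298 CPM in CD mice and 274, 273, 266, 243 and 292 CPM in FD mice. Of the FD mice 4 were below the lowest CD mouse and female 3 was among the CD values, with a log2 fold change of -0.068 (SE 0.050, adjusted p = 1 by the same edgeR test).

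Htr1b, which also acts as an autoreceptor on serotonergic terminals, had 1.13, 1.56 and 1.79 CPM in CD mice and 1.28, 1.81, 0.685, 1.34 and 0.911 CPM in FD mice. The lowest and the highest value of all mice were both in the FD group, and the log2 fold change was -0.33 (SE 0.205, adjusted p = 1, edgeR). Htr1a had 41.2, 48.1 and 50.1 CPM in CD mice and 46.1, 55.4, 45.3, 52.5 and 47.7 CPM in FD mice. Both FD males exceeded every CD mouse while the 3 FD females did not, and the log2 fold change was 0.078 (SE 0.068, adjusted p = 1, edgeR). Adrb3 rested on 7 to 30 reads per mouse, with 0.424, 0.581 and 0.799 CPM in CD mice and 0.727, 0.571, 0.761, 1.06 and 0.704 CPM in FD mice. Its groups overlapped too, and the log2 fold change was 0.33 (SE 0.219, adjusted p = 1, edgeR).

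The leading receptors of the adrenergic, histamine and dopamine families are given next. Adra1d had 29.3, 34.02 and 39.6 CPM in CD mice and 34.96, 31.3, 31.1, 25.1 and 39.7 CPM in FD mice, a log2 fold change of -0.087 (SE 0.103). Hrh3 had 28.7, 37.2 and 41.8 CPM in CD mice and 38.7, 31.1, 33.1, 32.0 and 38.2 CPM in FD mice, a log2 fold change of -0.067 (SE 0.087). Drd5 had 9.27, 11.5 and 12.1 CPM in CD mice and 9.94, 10.8, 12.4, 8.98 and 11.01 CPM in FD mice, a log2 fold change of -0.061 (SE 0.097). In each of the 3 the spread within a group was larger than the gap between the group means, and an FD male was the lowest FD mouse. Leaving out 1 mouse at a time gave log2 fold changes from -0.17 to -0.0080 for Adra1d, from -0.12 to -0.020 for Hrh3 and from -0.11 to -0.0090 for Drd5. The values nearest 0 came without FD male 2 for Adra1d and Drd5 and without CD female 1 for Hrh3.

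The genes that make, carry, remove and transduce the same transmitters gave a similar picture for diet: of 56 genes tested in the 7 lists, 0 had an unadjusted p under 0.05 in edgeR's quasi-likelihood test, with 29 positive and 27 negative fold changes. Enzymes of synthesis and vesicular transporters were mostly scarce, as 4 of 10 reached 1 CPM. Th, the first enzyme of catecholamine synthesis, had a mean of 0.412 CPM, Tph2, its counterpart for serotonin, 1.34 CPM, and Chat, which makes acetylcholine, 0.0490 CPM. Of the 8 reuptake carriers only Slc29a4, a low-affinity monoamine transporter, passed 1 CPM, with a mean of 32.9 CPM, while the serotonin transporter Slc6a4 had 0.0887 CPM. All 6 breakdown enzymes were expressed, among them Ache, which splits acetylcholine, at 55.4 CPM, and the monoamine oxidases Maoa and Maob at 40.2 and 24.1 CPM.

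Within these lists the smallest p for diet belonged to Gnas, the Gs alpha subunit, with 205 ± 9.74 CPM (SD, n = 6) in CD and 191 ± 10.9 CPM (SD, n = 5) in FD mice. Its log2 fold change was -0.10 (SE 0.051, adjusted p = 1, edgeR). Ddc, the decarboxylase shared by dopamine and serotonin synthesis, had 6.73 ± 0.833 and 7.57 ± 0.737 CPM and a log2 fold change of 0.18 (SE 0.1001, adjusted p = 1, edgeR). For the cyclases the smallest p was that of Adcy3, with a log2 fold change of -0.10 (SE 0.065), for breakdown that of Bche with 0.15 (SE 0.096), for the regulators of desensitisation that of Rgs4 with -0.089 (SE 0.056), for reuptake that of Slc5a7, the choline carrier, with 0.23 (SE 0.204) and for the phospholipases that of Plcb3 with 0.040 (SE 0.077).

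More genes differed between the sexes than between the diets in the main fits. This order turned when the share of reads outside genes was added as a covariate after seeing the data, with 9 genes for sex and 22 for diet. In the main fit, with diet as a covariate, 2 of 33 members passed the adjusted threshold of 0.1. They were Adra1d and Adrb1, both adrenergic and both lower in males. Of all 20589 genes 6.11% passed (1257), 3.03% lower in males, so the members' share was near that of all genes, and 4 members against 20.3% of all genes had an unadjusted p under 0.05. Adra1d had 31.7, 29.3 and 32.9 CPM in the CD males, 31.3 and 25.1 CPM in the FD males, and a lowest, median and highest value of 31.1, 37.4 and 39.7 CPM in females. Of the 5 males 2 lay below every female, and the log2 fold change was -0.30 (SE 0.071, adjusted p = 0.0641 in edgeR's quasi-likelihood test). Adrb1 had 11.2, 9.80 and 10.95 CPM in CD males, 10.3 and 10.96 CPM in FD males, and 10.8, 13.2 and 13.5 CPM in females. Again 2 males lay below every female and 1 female, FD female 2, was among the males, with a log2 fold change of -0.27 (SE 0.075, adjusted p = 0.0803, same edgeR test).

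Next in order were Hrh3 and Adra1a, which did not pass the adjusted threshold. Hrh3 had 35.2, 28.7 and 37.9 CPM in CD males, 31.1 and 32.0 CPM in FD males, and 33.1, 38.0 and 41.8 CPM as lowest, median and highest female, with a log2 fold change of -0.20 (SE 0.070, adjusted p = 0.114, edgeR). Adra1a lay between 9.17 and 10.9 CPM in the 5 males and between 3.93 and 10.2 CPM in the 6 females, with a log2 fold change of 0.47 (SE 0.166, adjusted p = 0.124, edgeR). The females spread widely for Adra1a: CD female 3 and FD female 3 had the lowest values of all mice and the other 4 lay between 6.82 and 10.2 CPM. Among the pathway genes 5 of 56 passed the adjusted threshold between the sexes in edgeR's quasi-likelihood test. Among them Slc29a4 and Rgs14, a regulator of G-protein signalling abundant in CA2 neurons, were lower in males with log2 fold changes of -0.31 and -0.24, and the cyclase Adcy1 and the receptor kinase Grk3 were higher with 0.24 and 0.20.

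The share of reads that fell outside annotated genes moved with these receptors. It was 10.2% ± 0.782 (SD, n = 5) in males and 8.79% ± 1.198 (SD, n = 6) in females, a difference of 1.37 percentage points (exact permutation test, two-sided, p = 0.0606), and 9.23% ± 1.34 in CD against 9.64% ± 1.154 in FD mice (exact permutation test, two-sided, p = 0.593). Over the 11 mice the level of Adra1d fell with this share (Pearson r = -0.79, permutation p = 0.00244, Spearman rho = -0.85, permutation p = 0.00188). The relation was computed for 4 receptors, and adjusted over the 4 the p was 0.00488 for r and 0.00228 for rho. These 4 were the members with the smallest p for sex, and the share was larger in males on average. A relation over the pooled mice can thus follow from that choice. The permutations did not hold sex fixed, and the adjustment did not cover the other members, so these p-values do not measure a relation apart from sex. For Adrb1 r was -0.77 and rho -0.84 (permutation p = 0.00556 and 0.00228, adjusted 0.00741 and 0.00228), and for Hrh3 r was -0.87 and rho -0.88 (permutation p = 0.0004 and 0.00098, adjusted 0.0016 and 0.00196). Adra1a went the other way with r = 0.64 and rho = 0.90 (permutation p = 0.0550 and 0.0003, adjusted 0.0550 and 0.0012).

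Without the 2 mice farthest from the median share, CD female 1 and CD male 2, r was -0.75, -0.81, -0.77 and 0.65 for Adra1d, Adrb1, Hrh3 and Adra1a. Within the 6 females alone r was -0.81, -0.55, -0.93 and 0.45 in the same order (exact permutation p = 0.0639, 0.297, 0.0222 and 0.372), and rho was -0.60, -0.26, -0.89 and 0.60 (exact permutation p = 0.242, 0.658, 0.0333 and 0.242). Within the 6 CD mice r was -0.79, -0.64, -0.82 and 0.52 (exact permutation p = 0.0389, 0.158, 0.0611 and 0.319), and rho was -0.77, -0.71, -0.49 and 0.94 (exact permutation p = 0.103, 0.136, 0.356 and 0.0167). Adjusted over the 4 receptors, the smallest p in a subset was 0.0667, for rho of Adra1a in CD mice, and the smallest for r was 0.0889, for Hrh3 in females (exact permutation tests). In an edgeR fit across all genes with diet, sex and the share as terms, 3.09% of the 20589 genes passed the adjusted threshold for the share (636), and none of these 4 receptors did. The slope per percentage point was -0.077 on the log2 scale for Adra1d (SE 0.034, adjusted p = 0.278, edgeR), -0.056 for Adrb1 (SE 0.039, adjusted p = 0.516, edgeR), -0.096 for Hrh3 (SE 0.031, adjusted p = 0.137, edgeR) and 0.16 for Adra1a (SE 0.084, adjusted p = 0.364, edgeR). The 1 member of 33 that passed was Adra2a, with a slope of -0.16 (SE 0.042, adjusted p = 0.0671, edgeR). With the share as a further covariate of the sex comparison, 9 genes instead of 1257 passed the threshold, and 0 members did. The log2 fold change between the sexes was then -0.18 (SE 0.080, adjusted p = 0.655, edgeR) for Adra1d, -0.18 (SE 0.093, adjusted p = 0.672, edgeR) for Adrb1, -0.060 (SE 0.072) for Hrh3 and 0.22 (SE 0.199) for Adra1a. These relations, this fit and this covariate were chosen after seeing the data.

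**Figure D3:**
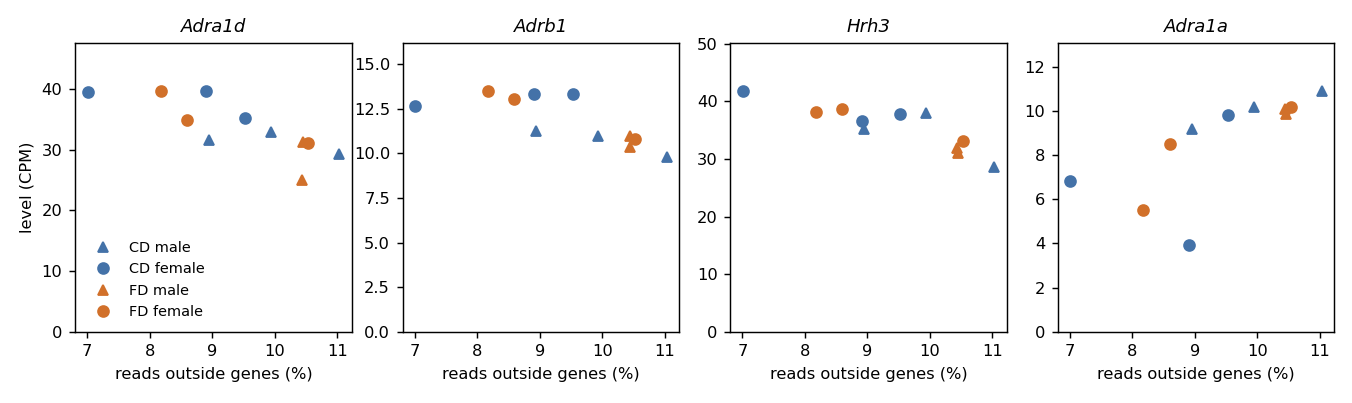
Level in CPM of Adra1d, Adrb1, Hrh3 and Adra1a in each mouse against the percentage of listed reads that fell outside annotated genes (blue CD, orange FD, triangles males, circles females). The first 3 are lower in mice with a larger share (r = -0.79, -0.77 and -0.87) and Adra1a is higher (r = 0.64), and FD female 2, with 10.5%, sits among the males in each panel.

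The sex calls also depended on single mice. The adjusted p of Adra1d rose above 0.1 without CD male 1 (0.167), CD female 1 (0.142), CD male 2 (0.132), CD female 3 (0.160), FD female 1 (0.104), FD male 2 (0.152) or FD female 3 (0.139), in the same edgeR fit. That of Adrb1 rose above 0.1 without any of these 7 mice (0.171, 0.167, 0.155, 0.179, 0.121, 0.155 and 0.171 in the same order) and without CD male 3 (0.122) or FD male 1 (0.127). The log2 fold changes themselves stayed between -0.35 and -0.25 for Adra1d and between -0.29 and -0.23 for Adrb1. Within CD mice alone they were -0.28 and -0.28, and within FD mice alone -0.32 and -0.24. Over all alternatives run with edgeR or DESeq2 the adjusted p ranged from 0.000287 to 0.714 for Adra1d and from 0.0261 to 0.728 for Adrb1.

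Whether the diet difference depended on the sex of the offspring was tested with an interaction term. Of all 20589 genes 0 passed the adjusted threshold and 1.90% had an unadjusted p under 0.05, and of the 33 members 2 did, Drd1 and Htr5b (edgeR's quasi-likelihood test; DESeq2 was not run for this term). Drd1 had 5.34, 6.83 and 5.93 CPM in CD females and 7.56, 6.93 and 7.33 CPM in FD females. In males it had 5.95, 5.77 and 7.05 CPM under CD and 5.43 and 4.88 CPM under FD. The FD females were thus all above the CD females and the FD males all below the CD males. The interaction was -0.59 on the log2 scale (SE 0.201, unadjusted p = 0.00948, adjusted p = 1, edgeR), with a diet difference of 0.30 (SE 0.138) in females and -0.27 (SE 0.154) in males. Htr5b, a receptor of restricted expression, had 5.94, 5.29 and 5.26 CPM in CD and 5.96, 6.24 and 5.30 CPM in FD females, and 5.26, 5.77 and 6.32 CPM in CD and 4.86 and 3.96 CPM in FD males. Its interaction was -0.45 (SE 0.206, unadjusted p = 0.0439, adjusted p = 1, edgeR). With the replicate number as a block the members under 0.05 were Drd1 with -0.49 (SE 0.220, unadjusted p = 0.0365, adjusted p = 1, edgeR) and Htr1a with 0.31 (SE 0.125, unadjusted p = 0.0211, adjusted p = 1, edgeR), and Htr5b had -0.37 (SE 0.229, unadjusted p = 0.118, adjusted p = 1, edgeR).

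**Figure D4:**
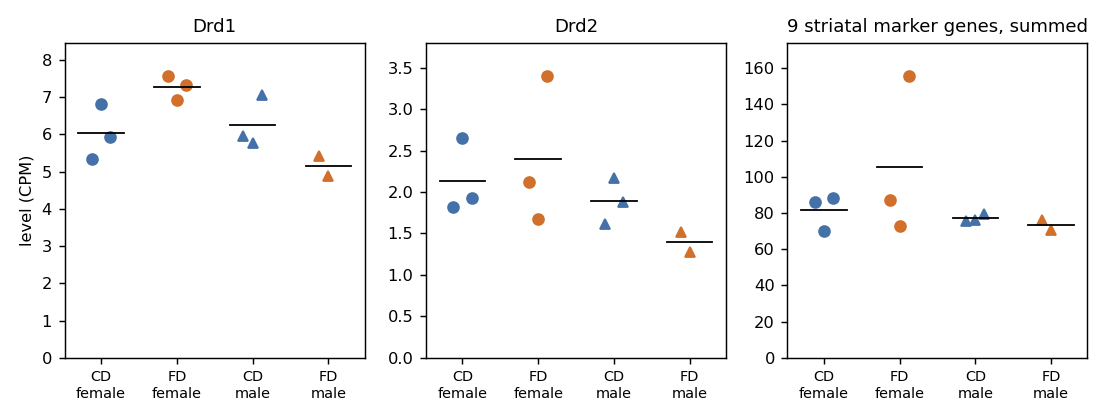
Level in CPM of Drd1, Drd2 and the sum of 9 striatal marker genes by diet and sex, with 1 point per mouse and a line at the mean of each set. Drd1 was between 6.93 and 7.56 in FD females and between 4.88 and 5.43 in FD males, and FD female 3 had the highest Drd2 (3.40) and striatal sum (155.5).

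Receptors are shared with neighbouring tissue, and marker levels are therefore given beside them. In bulk RNA a change in the number of cells of a type and a change in RNA per cell cannot be told apart. The labelled tissue was checked with markers of hippocampal principal cells, 11 of 11 of which were at or above 1 CPM, with a summed level of 1334 to 1453 CPM in CD and 1270 to 1441 CPM in FD mice. Of 9 striatal markers 6 reached 1 CPM, and the sum was 70.3 to 88.3 CPM in CD mice and 70.4 to 87.4 CPM in FD mice other than FD female 3, which had 155.5 CPM. None was at 0 in every mouse. In FD female 3 Penk reached 57.7 CPM, against at most 27.6 CPM elsewhere, and the striatal transcription factor Six3 1.04 CPM, against at most 0.233 CPM.

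Drd2, the receptor of indirect pathway neurons, was highest in that mouse with 3.40 CPM, against 2.12, 1.52, 1.68 and 1.27 CPM in the other FD mice and 1.61, 1.90 and 2.65 CPM as lowest, median and highest CD mouse. Its log2 fold change for diet was 0.081 (SE 0.213) with FD female 3 and -0.20 without it. Over 11 mice Drd2 and the mean striatal marker score gave r = 0.58 and rho = 0.14 (permutation p = 0.130 and 0.697, adjusted over 5 relations 0.217 and 0.735), which turned to r = -0.49 without FD female 3 and FD female 1. For Drd1 r was 0.39 and rho 0.25 (permutation p = 0.242 and 0.469, adjusted 0.302 and 0.735), and r was -0.42 without the same mice. Both relations rested on those 2 mice. Without FD female 3 the interaction of Drd1 kept its sign, since it lay between -0.68 and -0.48 in all 11 fits that each left out 1 mouse.

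Htr2c, which is abundant in the choroid plexus as well as in neurons, had 42.6, 57.9 and 63.6 CPM in CD mice and 52.4, 57.0, 55.0, 56.9 and 53.7 CPM in FD mice. The CD mice spread more widely than the FD mice, and the log2 fold change was 0.0059 (SE 0.092). Of 10 choroid plexus markers 4 reached 1 CPM and the sum was 36.2 to 91.2 CPM in CD and 31.4 to 44.8 CPM in FD mice, with the highest sum in CD female 3, the mouse with the lowest Htr2c. The 2 were related by r = -0.67 and rho = -0.51 (permutation p = 0.0288 and 0.113, adjusted over the 5 relations 0.108 and 0.283), and r was -0.55 without CD female 3 and FD female 2. With thalamic markers, all 8 of which were expressed, Htr2c gave r = -0.13 and rho = -0.12 (permutation p = 0.692 and 0.735, adjusted 0.692 and 0.735).

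Htr3a, in the hippocampus a gene of a class of GABA interneurons, had 9.27, 10.5 and 12.6 CPM in CD mice and 9.27, 10.8, 9.90, 9.97 and 11.97 CPM in FD mice, with a log2 fold change of -0.029 (SE 0.093). The groups covered nearly the same range, and CD female 1 and FD female 3 were highest. These mice also had the 2 highest sums over 9 interneuron markers, 1191 and 1208 CPM, against 1024 to 1185 CPM in the others. In the mean score of the same markers CD female 3 (0.171), with 10.5 CPM of Htr3a, ranked above CD female 1 (0.159). Htr3a and the interneuron score gave r = 0.64 and rho = 0.61 (permutation p = 0.0432 and 0.0520, adjusted over the 5 relations 0.108 and 0.260), and r = 0.57 without FD female 3 and CD female 3. The remaining markers, of meninges, astrocytes, microglia, vessels and oligodendrocytes, were all at or above 1 CPM, and the 8 meningeal markers ranged most, from 87.2 to 213 CPM as a sum in CD mice and from 118 to 352 CPM in FD mice. Their part in the receptor levels was not tested.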

How the data were processed

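Whole hippocampi were sequenced by the authors as single-end Illumina libraries, aligned with STAR to GRCm38, and counted per gene with featureCounts per the labels. The deposited values are raw counts, 1 table per mouse, and the strand setting and annotation release are not given in the sources used here. Symbols, exons and positions came from GENCODE M21, which held 95.1% of the IDs. Genes with fewer than 10 counts in total were dropped and the rest compared in R 4.3.3 with edgeR 4.0.16 (TMM, quasi-likelihood test, Benjamini-Hochberg adjustment over all genes, threshold 0.1). Diet was tested without covariates, sex with diet as covariate, and their interaction with both. DESeq2 1.42.0, RLE size factors, other count filters, sex as covariate, a replicate block, males or females only and fits leaving out 1 mouse were the alternatives. CPM per kb used the union of exons.

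The total count per mouse, 11737554 to 44447006, makes 3 counts worth 0.0675 to 0.256 CPM, which covers counting error only. Per the labels, mice shared sex and replicate number across diets. Deviations from the group mean correlated with r between 0.31 and 0.54 in all 5 such pairs, against -0.063 to 0.53 in 10 pairs of the same sex with other numbers. These ranges overlapped. Of the FD mice 4 correlated best with the CD mouse of their own number, and FD male 1 did so with CD male 3 (0.410, against 0.391). The labels do not state a pairing, so the block was run only as an alternative. Tables of any 2 mice of a group differed beyond sampling noise (chi-square per degree of freedom at least 4.13). Correlations used 100000 permutations.

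The members and lists were chosen with earlier results of these data known. Values by mouse (lowest, median and highest for groups of 6) are given for the leading receptor of each family, the 5 smallest p for diet, the 3 smallest for sex, members with an unadjusted interaction p under 0.05 and those paired with marker lists. Adra1a was added after its values were seen. In the pathway lists the genes with the smallest p for diet are named, and others were chosen for their role. Slc18a3 and protein sequences were not analysed here. The values of 1 pathway gene are not reported here. The fits were tested on simulated counts. Python 3.11.15, pandas 2.3.3, SciPy 1.17.1 and matplotlib 3.10.9 made the other tables and figures.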

Additional observations from a re-analysis of the deposited data

Results flagged for a closer look

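Hrh2 in CD mice was flagged for 1 mouse far from the others: CD female 3 had 1.86 CPM, against 3.05 to 3.44 CPM in the other 5, and the gap was 0.750 of the whole range. Chance flags about 1 in 20 groups, and 56 groups were examined. Among the other expressed members the same mouse was the lowest of the CD group for Htr1b, Htr2a, Htr2c, Htr4, Htr5b, Htr7, Adra1a, Chrm3, Chrm4 and Chrm5. It was the highest for Htr6, Adra1d and Adrb1. FD female 3 was low in Hrh2 as well, with 1.905 CPM.

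Drd1 was flagged because its diet difference had opposite directions in the sexes, with all FD females above all CD females and all FD males below all CD males. The interaction was -0.59 on the log2 scale, with an adjusted p of 1 over all genes in edgeR's quasi-likelihood test.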

How the results depend on the processing

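For diet, 0 members passed the threshold in the main edgeR fit and in every alternative run, and the lowest adjusted p of any member in any of them was 0.682. Over all genes the count of 14 became 1 with at least 10 counts in every mouse, 8 with filterByExpr, 2 in males only, 1 in females only, 22 with the share of reads outside genes as covariate (added after seeing the data) and 25 with the replicate block, and 3 to 12 when 1 mouse was left out. With the replicate block 0 members passed for diet and 0 genes for the interaction, as without it. The sex comparison was not fitted with the block. Signs of small diet differences turned. Adrb1 had -0.035 with sex as covariate, -0.032 with the replicate block and -0.054 in females only. Drd2 had -0.0096 with sex as covariate and -0.38 in males only, where Drd1 had -0.27, Htr1b 0.035 and Htr3a 0.051. Htr3a had 0.0010 with the share as covariate. In females only Htr1a had -0.025 and Htr2c -0.018. Leaving out 1 mouse gave -0.054 to 0.045 for Adrb1, -0.20 to 0.19 for Drd2, -0.054 to 0.055 for Htr2c and -0.090 to 0.033 for Htr3a. The cause was not tested.

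For sex, the 1257 genes and 2 members became 2043 and 4 with DESeq2, 2645 and 5 without a filter, 9 and 0 with the share as covariate, and 5 and 0 within CD mice and within FD mice alone (the last 3 added after seeing the data). Leaving out 1 mouse gave 18 (without CD male 1) to 3244 genes (without CD female 2) and 0 to 4 members. The interaction gave 0 to 1 genes and 0 members. Hrh3 had 13.1 CPM per kb of its longest transcript. Within CD mice r with the striatal score was -0.43 for Drd1 and -0.75 for Drd2, and -0.42 and -0.49 without the 2 mice farthest from the median. Relations within the 5 FD mice were not run. Depth limits the members under 1 CPM, and 6 against 5 mice limit the rest.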
